A study of Mus musculus with 2 samples.

Results

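Interferon-stimulated genes were followed through 9 members, Ifit1, Ifit3, Ifi35, Gbp2, Irf7, Irf9, Bst2, Ifitm3 and Isg15, which were listed by name, with earlier results of these data known. Every probe whose only annotated gene symbol is a member was taken, and all 9 genes had at least 1, which gave 13 of the 45281 probes on the array. The RNA came from hippocampus of male mice of ICR, an outbred stock, with a labelled age of 4 weeks. Mice of the CeCl3 group received cerium chloride, a salt of a lanthanide metal, by mouth into the stomach each day for 90 days, and control mice received purified water in its place. The labelled age is shorter than the 90 days of dosing, so it cannot be the age at the end of dosing. The label of the CeCl3 sample lists daily amounts of 0.5 mg/kg, of 1 mg/kg and of 2 mg/kg, without saying which of them, or which mixture, the array holds, and the number of mice behind either array is not known. The study asked what exposure does to memory and hippocampal transcripts, and the transcripts were measured here on Illumina bead arrays.

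Each group has 1 array, so nothing here is replicated, which limits the precision, no test across samples could be made, and differences carry no p-value. A probe's signal is the mean over its beads, and each interval quoted is a 95% interval from the bead-to-bead standard error within the arrays alone. The array names place the arrays on different BeadChips, and chip and group therefore cannot be told apart. Detection means a p-value under 0.01 in the scanner software's comparison with negative control beads, which 38.5% of probes met on the CeCl3 array, against 36.3% on the control array. Both samples are labelled male, but 0 of 4 probes of Xist, the RNA that silences an X chromosome in female cells, were detected on the CeCl3 array, against 4 of 4 on the control array. Of the probes for Uty, Kdm5d and Eif2s3y, genes of the Y chromosome, 1, for Eif2s3y, was detected, and on the CeCl3 array alone. The part of sex in the values below was not tested.

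Interferons are cytokines released when cells sense viral nucleic acid or immune activation. Type I interferons signal through the Ifnar receptor and the kinases Jak1 and Tyk2 to a complex that holds Stat2 and Irf9 and binds the interferon-stimulated response element in the promoters of its target genes. Interferon gamma acts through its own receptor and on a different promoter element, the gamma-activated site. In brain, microglia, endothelial cells, astrocytes and neurons can all answer interferon, and the same genes have a low tonic level without infection.

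The element through which the complex of Stat2 and Irf9 acts is printed here for the members in which it was found ahead of the annotated start. A RefSeq window of 300 bases, from 250 before to 50 after each annotated start in GRCm38.p6, was searched on both strands for the core GAAANNGAAA. Matches may overlap. The core occurred in the windows of 6 of 9 members (Ifit1, Ifit3, Gbp2, Bst2, Ifitm3 and Isg15), while 3.99% of the 27025 genes with a window hold it. In Ifitm3 both matches lay after the start, and none is printed. Each sequence is written 5′ to 3′ on the strand of its gene, with the matched core in capitals, which reads as its reverse complement in Ifit3, Ifit1 and Gbp2.
Ifit3, chr19:34583348-34583441, plus strand: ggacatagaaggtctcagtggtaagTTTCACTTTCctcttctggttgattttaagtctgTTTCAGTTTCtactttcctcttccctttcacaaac
Ifit1, chr19:34640760-34640838, plus strand: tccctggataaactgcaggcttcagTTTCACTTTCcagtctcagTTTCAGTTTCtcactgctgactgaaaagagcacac
Isg15, chr4:156200850-156200921, minus strand: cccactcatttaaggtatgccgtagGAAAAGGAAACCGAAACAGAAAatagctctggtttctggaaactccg
Gbp2, chr3:142620579-142620638, plus strand: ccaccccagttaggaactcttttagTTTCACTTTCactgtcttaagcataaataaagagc
Bst2, chr8:71537562-71537627, minus strand: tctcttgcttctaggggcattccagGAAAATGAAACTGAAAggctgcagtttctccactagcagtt

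Ifit3 and Ifit1 each carry 2 separate cores, starting 156 and 122 bases before the start in Ifit3 and 104 and 85 bases before it in Ifit1. Isg15 carries 3 overlapping cores and Bst2 carries 2. Gbp2 has 1, which begins 59 bases before the start. A second motif, TTCNNNGAA, the form of the gamma-activated site, was found in the windows of 3 of 9 members (Ifi35, Bst2 and Ifitm3) and of 9.55% of all genes. A match is a run of letters in a window, not a measured binding site.

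Ifit3, whose protein joins other Ifit proteins in complexes that hold back viral RNA, had the largest difference among the members. Its brighter probe gave a deposited signal of 296 ± 18.3 (SE over 49 beads) on the CeCl3 array, against 818 ± 74.3 (SE over 27 beads) on the control array. On the log2 scale after background correction the signals were 8.27 (CeCl3) and 9.70 (control), a difference of -1.43 (bead interval -1.73 to -1.12), and the signal was 2.69-fold lower on the CeCl3 array. Of 9473 named genes detected on both arrays, 0.0950% had a lower difference. Among the 1749 of these whose mean log2 signal lay within 0.5 of that of Ifit3, 4 were at least 2-fold lower, Ifit3 included. The second Ifit3 probe was not detected on either array, at -5.90 (CeCl3) and -13.0 (control), so the difference rests on 1 probe. In tissue RNA, fewer cells that carry a transcript cannot be told apart from less of it per cell. Ifit3b, a near-identical paralog, has no named probe here, and its transcripts could add to the Ifit3 signal.

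Ifit1, which recognises viral RNA by its cap, lies in the same gene cluster as Ifit3 but was not detected on either array. Its probe had a signal of -0.451 ± 7.61 (SE over 44 beads) on the CeCl3 array, against -8.39 ± 7.86 (SE over 45 beads) on the control array. The 95% bead error of both values reaches 0. Ifit2, looked up after its values were seen, was detected on both arrays on its brighter probe, with signals of 248 (CeCl3) and 278 (control) and a log2 difference of -0.16 (-0.54 to 0.23). Its dimmer probe reached detection only in the control sample, at 37.5 (CeCl3) and 118 (control), and was thus lower by 2.22-fold or more. A lower bound of this kind sets the brighter signal against the lowest detected signal of the other array, which was 5.87 (CeCl3) or 6.14 (control) on the log2 scale, and leaves out bead error. Such a probe entered through the array on which it was brighter, so the direction of this bound and of each bound below adds no support.

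**Figure D1:**
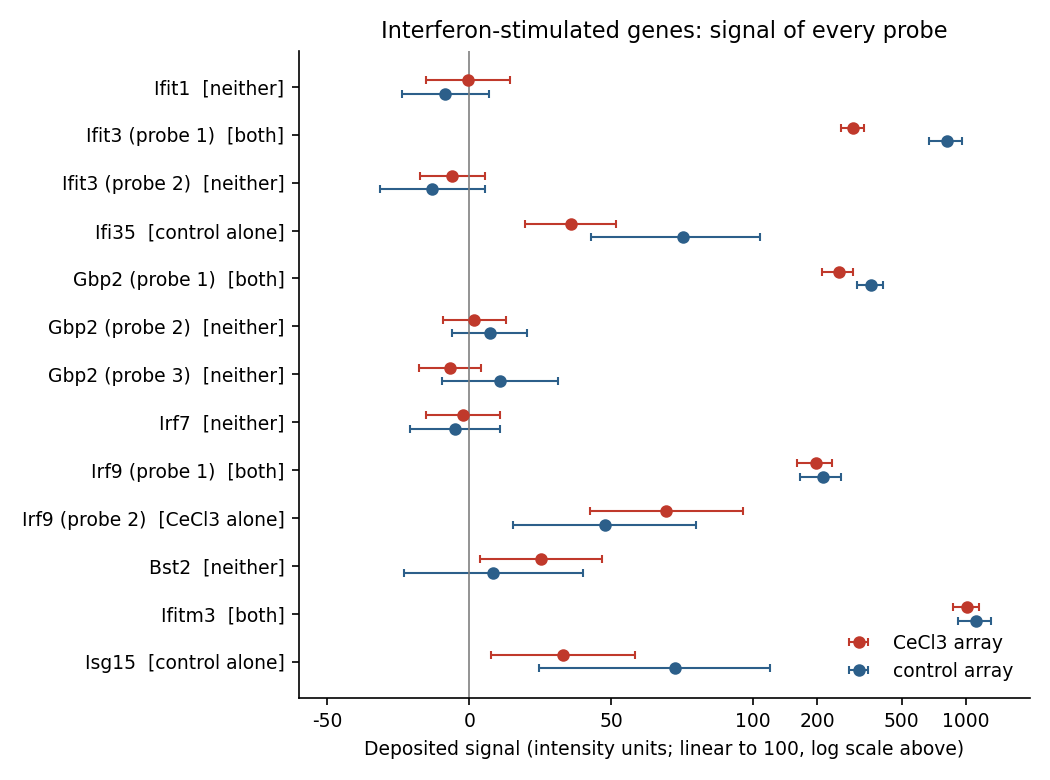
Deposited signal of each of the 13 probes of interferon-stimulated genes on the CeCl3 array (red, upper point of a pair) and the control array (blue, lower point), with bars of 95% bead error; the axis is linear up to a signal of 100 and logarithmic above, and brackets say on which array a probe was detected. Ifit3 probe 1, at 296 (CeCl3) and 818 (control), has the widest gap, and the 6 probes detected on neither array lie near 0.

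Gbp2, a guanylate-binding GTPase induced above all by interferon gamma, was also lower on the CeCl3 array on its 1 detected probe. That probe had signals of 253 ± 21.4 (SE over 32 beads) on the CeCl3 array, against 358 ± 25.6 (SE over 44 beads) on the control array. The log2 difference was -0.48 (-0.78 to -0.18), or 1.39-fold lower. The other Gbp2 probes were detected on neither array, with signals of 1.80 and -6.80 on the CeCl3 array, against 7.19 and 10.9 on the control array. Of the named genes detected on both arrays, 6.38% had a lower difference than Gbp2.

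Isg15, a ubiquitin-like protein that is attached to other proteins, was detected on the control array alone. Its signal was 33.0 ± 12.9 (SE over 31 beads) on the CeCl3 array, against 72.4 ± 24.4 (SE over 26 beads) on the control array, which put it at least 1.45-fold lower. Set against the undetected CeCl3 signal, its log2 difference was -0.88 with a bead interval of -2.01 to 0.26, so bead error alone covers 0. Ifi35, a leucine zipper protein that pairs with Nmi, was likewise detected on the control array alone, with 35.8 ± 8.20 (SE over 36 beads) on the CeCl3 array, against 75.4 ± 16.6 (SE over 46 beads) on the control array. It was at least 1.5-fold lower, and its difference, likewise set against an undetected signal, was -0.85 (-1.56 to -0.14). Both genes entered through the array on which they were brighter, so their direction was bound to be lower and adds no support, and 3.15% of detected named genes were likewise represented by a probe with detection in the control sample only.

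The enzymes that move Isg15 were read beside it, after their values were seen. Isg15 itself entered through the control array alone. Its bead interval of -2.01 to 0.26 holds the values of the enzymes on their brightest probes, so no difference between them and Isg15 is shown. Uba7, which activates Isg15, had a log2 difference of -0.25 (-0.70 to 0.21). Ube2l6, which hands it on, lay at -0.13 (-0.56 to 0.30) on its brightest probe, and a second probe, detected in the control sample only, was lower by 1.33-fold or more. Usp18, which removes Isg15 from its targets and damps the receptor, lay at -0.12 (-0.65 to 0.40).

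Ifitm3, a membrane protein that blocks fusion of incoming viruses, differed little between the arrays. Its signal was 1011 ± 72.7 (SE over 39 beads) on the CeCl3 array, against 1117 ± 98.1 (SE over 33 beads) on the control array, a log2 difference of -0.15 (-0.46 to 0.17). Its relatives Ifitm1 and Ifitm2, named after their values were seen, lay at -0.05 (-0.32 to 0.23) and -0.01 (-0.26 to 0.24) on their brightest probes, and the second Ifitm1 probe lay at -0.51 (-0.77 to -0.25). Bst2, the tetherin that holds budding virus at the cell surface, was detected on neither array, with 25.3 ± 11.0 (SE over 32 beads) on the CeCl3 array, against 8.46 ± 16.1 (SE over 25 beads) on the control array.

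The regulators among the members differed by less than their bead error or were not detected. Irf9, the DNA-binding subunit of the complex with Stat2, had signals of 199 ± 19.1 (SE over 41 beads) on the CeCl3 array, against 213 ± 24.2 (SE over 42 beads) on the control array, a log2 difference of -0.09 (-0.49 to 0.30). Its second probe went the other way. It passed detection on the CeCl3 array alone, at 69.5 (CeCl3) and 47.8 (control), at least 1.17-fold higher. However, the bead interval of its difference of 0.44, set against an undetected signal, ran from -0.46 to 1.35. Irf7, which switches on the interferon alpha genes, was detected on neither array, at -2.22 ± 6.59 (CeCl3) and -5.12 ± 8.06 (control), over 44 beads on each.

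**Figure D2:**
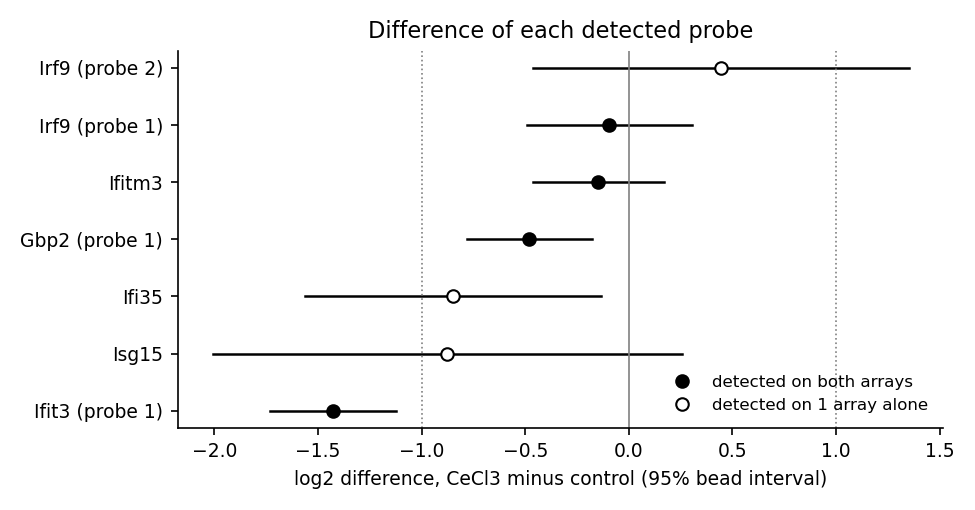
Log2 difference (CeCl3 minus control) of the 7 member probes detected on at least 1 array, with 95% bead intervals; filled points were detected on both arrays, open points on 1 alone, and dotted lines mark a 2-fold difference. Ifit3 at -1.43 lies beyond 2-fold, Gbp2 at -0.48 and Ifi35 at -0.85 have intervals below 0, and the intervals of Isg15, Ifitm3 and both Irf9 probes hold 0. Open points, Ifi35 among them, are set against a signal that was not detected, so their size is not measured.

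Counted by gene on the brightest detected probe, 6 of 9 members were detected and 3 (Ifit1, Irf7 and Bst2) were not. Of the 6, Ifi35 and Isg15 passed through the control array alone and are left out of the counts that follow. The 4 members detected on both arrays lay below 0, as did 57.7% of the 9473 named genes detected on both. In the series matrix as deposited, however, Irf9 lay at 0.26 and Ifitm3 at 0.04, where all detected genes had a median of 0.18. Irf9 also lay above 0, at 0.18, on the mean of its detected probes. As reported, the median log2 difference was -0.31 over these 4 members and -0.05 over the 9473 genes detected on both arrays. Of these 4 members 2, Ifit3 and Gbp2, had a bead interval below 0, as had 13.9% of such genes, while none had an interval above 0, as had 8.59%. Of the 4, only Ifit3 was lower by 2-fold or more, as were 0.496% of such genes, and none was higher by 2-fold, as were 0.486%. Among all 10416 genes detected on at least 1 array, 1.95% were lower and 2.77% higher by 2-fold or more. The lower side held 41.3% of all 2-fold differences, against 50.5% among genes detected on both arrays and 19.1% in the series matrix as deposited.

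**Figure D3:**
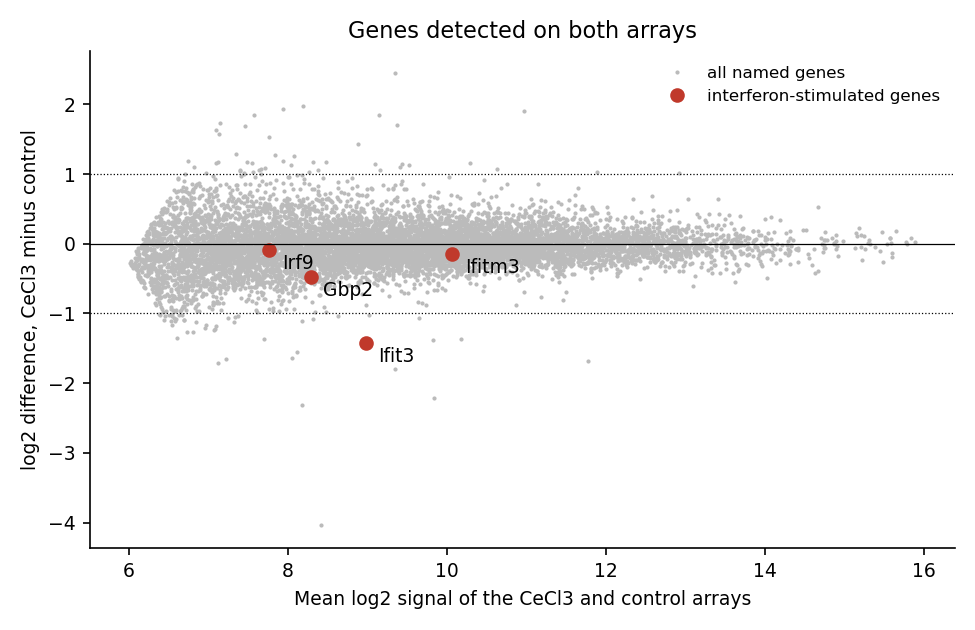
Log2 difference (CeCl3 minus control) against the mean log2 signal of the arrays for the 9473 named genes detected on both arrays (grey), with the 4 interferon-stimulated genes among them in red. Ifit3 at -1.43 stands outside the band of genes of like signal, Gbp2 at -0.48 lies in its lower part, and Irf9 and Ifitm3 lie near its middle.

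Markers of the cell types that could carry these transcripts were read on the same arrays. Of 11 neutrophil markers with a named probe 8 were detected, and the list summed to a signal of 2572 (CeCl3) and 438 (control). Detection on both arrays held for 2 of them. S100a8 was at 1508 (CeCl3) and 266 (control), a log2 difference of 2.44 (2.12 to 2.76), and Lcn2 was at 229 (CeCl3) and 68.6 (control), a difference of 1.58 (0.99 to 2.16). The other 6 passed on the CeCl3 array alone, so their direction was bound to be higher. The brightest of these, Ltf, was at 256 (CeCl3) and 31.3 (control) and at least 3.83-fold higher. Of all genes detected on both arrays, 0.486% were higher by 2-fold or more. None of 10 markers of T and natural killer cells was detected on either array.

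Hippocampal excitatory neuron genes, 11 of 12 detected, summed to 67071 (CeCl3) and 63821 (control) with a median log2 difference of 0.02, and had Rasgrf1 at -0.07, Nrgn at -0.13 and Camk2a at 0.02 as the brightest. Microglial genes, 13 of 15 detected, summed to 5185 (CeCl3) and 6056 (control) with a median of -0.05. Of the 13, 5 lay above and 8 below 0, where 55.8% of all detected genes lay below 0 and their median was -0.04. Of the 12 detected on both arrays 7, or 58.3%, lay below 0, against 57.7% of all such genes. The brightest microglial genes were Cx3cr1 at -0.15, C1qb at -0.08 and C1qc at -0.30. The widest difference among the microglial genes, named after its values were seen, was that of the Fc receptor relative Fcrls. It was at 117 (CeCl3) and 631 (control), -2.31 (-2.62 to -2.00) on its brightest probe. A second probe lay at -0.46 (-0.87 to -0.06), and the last, which reached detection only in the control sample, was lower by 1.99-fold or more. Endothelial genes, 11 of 13 detected, summed to 15103 (CeCl3) and 16036 (control) with a median of -0.15, led by Slc2a1 at -0.13, Egfl7 at 0.22 and Ly6c1 at -0.21. Astrocyte genes, 7 of 8 detected, summed to 64497 (CeCl3) and 61144 (control) with a median of -0.01, with Slc1a3 at -0.03, Aldoc at 0.21 and Gja1 at 0.23. Choroid plexus genes, 7 of 7 detected, summed to 15896 (CeCl3) and 15423 (control) with a median of -0.02, and had Ttr at 0.09, Clic6 at -0.02 and Kl at -0.40. The sums, taken over deposited signals, were thus lower on the CeCl3 array for microglia and endothelium and higher for neurons, astrocytes and choroid plexus. A sum is carried by its brightest genes, such as Ttr at 13096 (CeCl3) and 12463 (control). The microglial sum includes Fcrls at 117 (CeCl3) and 631 (control). Rasgrf1, in the neuron sum, had deposited signals of 37274 (CeCl3) and 34893 (control), although its log2 difference after normalization was -0.07. By count, 7 of 11 detected endothelial genes lay below 0. So did 4 of 7 detected astrocyte genes, 4 of 7 choroid plexus genes and 5 of 11 neuron genes. Of all detected genes, 55.8% did. The part of any of these cell types in the values of the interferon-stimulated genes was not tested.

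The genes whose signals on the arrays lay nearest those of Ifit3, by the Euclidean distance between pairs of log2 signals over 2 samples, were Dus1l (distance 0.29), Pdk4 (0.39) and Adcy8 (0.51). Their log2 differences were -1.02, -0.87 and -0.72. The genes were picked by their signals on both arrays, so differences on the same side as that of Ifit3 follow from the choice.

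A wider list of antiviral effectors showed small differences for most genes. Of its 57 genes 54 had a named probe and 30 were detected, of which 7 lay above 0 and 23 below, with a median of -0.14. Of all detected named genes 55.8% lay below 0, with a median of -0.04. All genes together had a median of 0.18 in the series matrix as deposited, and there 6 effectors were below 0 and the list's median was 0.15. Among the 24 detected on both arrays 20, or 83.3%, lay below 0, where the share of all such genes was 57.7%. Of the 24, 1 had a bead interval above 0 and 2 had one below 0, or 4.17% and 8.33%, against 8.59% and 13.9% of all such genes. Plscr1, a phospholipid scramblase, lay at -0.51 (-0.92 to -0.11) and Pml, the scaffold of nuclear bodies, at -0.32 (-0.61 to -0.03). Rsad2, or viperin, lay at -0.30 (-0.79 to 0.19), and Parp14, an ADP-ribosyltransferase, at -0.28 (-0.78 to 0.23). The probes of Ifi27 disagreed, at 0.26 (0.0044 to 0.52) on the brightest and -0.35 (-0.62 to -0.08) on the other.

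Of the 30 detected effectors 3 passed in the CeCl3 sample only and 3 in the control sample only, while of all detected genes 5.9% and 3.15% did. The direction of these 6 came with the filter. Helz2, a helicase and nuclear receptor coactivator, had signals of 12.6 (CeCl3) and 76.1 (control) and was at least 1.52-fold lower. Trim25, the ubiquitin ligase that activates RIG-I, had 101 (CeCl3) and 9.40 (control) and was at least 1.62-fold higher on its 1 detected probe, while its other probe was detected on neither array.

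**Figure D4:**
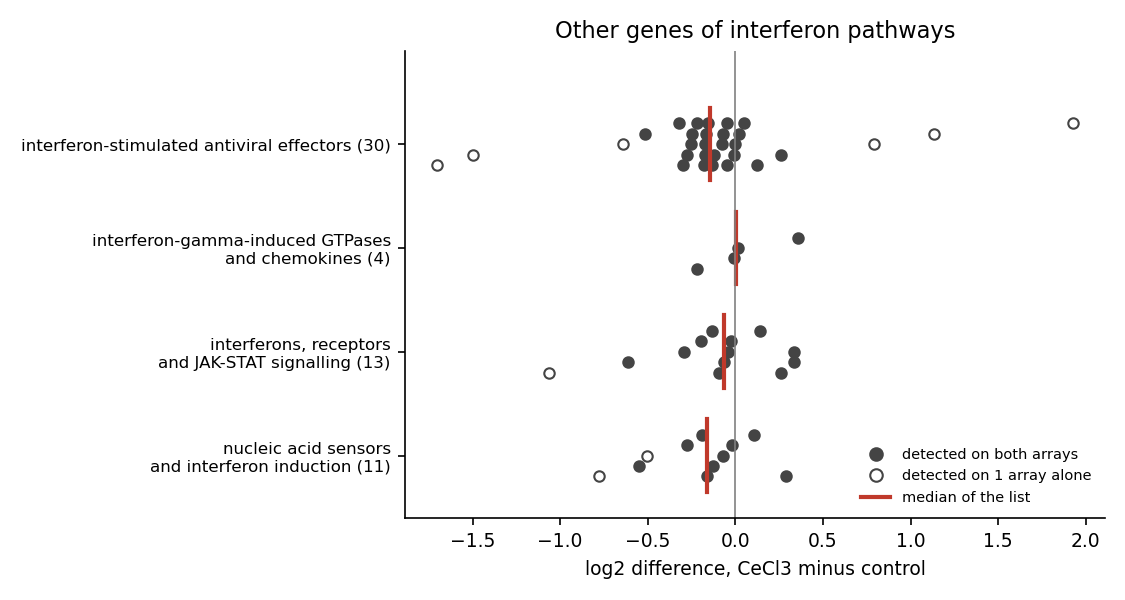
Log2 difference (CeCl3 minus control) of each detected gene in 4 lists of interferon pathway genes, on its brightest detected probe, with the number detected in brackets; filled points were detected on both arrays, open points on 1 alone, and red bars are list medians. Most effectors lie close to their median of -0.14. An open point is set against a signal that was not detected, so its size is not measured.

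Genes of the interferon gamma list were mostly not detected. Of 19, 18 had a named probe and 4 were detected, while 10416 of all 19057 named genes were. Of the 4, 2 lay above and 2 below 0, with a median of 0.00, against 55.8% below 0 and a median of -0.04 over all detected genes. The immunity-related GTPase Irgm1 lay at 0.02 (-0.37 to 0.41), with signals of 3088 (CeCl3) and 3052 (control). Its relatives Irgm2 and Igtp lay at -0.01 (-0.42 to 0.40) and -0.22 (-0.66 to 0.22). Gbp3, a relative of Gbp2, lay at 0.36 (-0.44 to 1.15) and 0.19 (-0.57 to 0.96) on its detected probes, and both intervals hold 0.

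Of 22 genes for interferons, their receptors and JAK-STAT signalling, 21 had a named probe and 13 were detected, 4 above and 9 below 0, with a median of -0.06, against 55.8% below 0 and a median of -0.04 over all detected genes. Of the 12 detected on both arrays 8, or 66.7%, lay below 0, against 57.7% of all such genes. The median of these 12 was -0.05, as was that of all such genes. On its brightest detected probe Ifnar2 passed on the control array alone, so its direction there adds no support. The interferon gamma receptor chain Ifngr1 was at 204 (CeCl3) and 319 (control), a log2 difference of -0.62 (-0.96 to -0.27). The kinase Jak1 lay at -0.29 (-0.50 to -0.09) and its relative Jak2 at 0.33 (0.03 to 0.63), with a second Jak2 probe at -0.04. The transcription factor Irf1 lay at 0.33 (-0.01 to 0.68) and, on its second probe, at -0.32 (-0.67 to 0.03). Tyk2 lay at 0.26 (-0.21 to 0.73), but a dimmer probe, detected in the control sample only, was lower by 1.64-fold or more.

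The type I receptor gave opposite answers by probe. A probe of the chain Ifnar2 passed detection on the control array alone, at 37.5 (CeCl3) and 92.9 (control), at least 1.80-fold lower, and another on the CeCl3 array alone, at 79.1 (CeCl3) and 16.5 (control), at least 1.30-fold higher. The chain Ifnar1 was detected on neither array. Stat2, the partner of Irf9, lay at -0.04 (-0.72 to 0.63).

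Of 19 genes that sense nucleic acid and start interferon production, 18 had a named probe and 11 were detected, 2 above and 9 below 0, with a median of -0.16, where the share below 0 over all detected genes was 55.8% and their median -0.04. Of the 9 detected on both arrays 7, or 77.8%, lay below 0, against 57.7% of all such genes. The median of these 9 was -0.13, where that of all such genes was -0.05. The other 2 passed on the control array alone, so their direction adds no support. The RNA sensors Ddx58, or RIG-I, and Ifih1, or MDA5, were detected on neither array. The endosomal sensor Tlr7 lay at -0.55 (-1.13 to 0.03), the RIG-I relative Dhx58 at -0.28 (-0.83 to 0.27), and the signalling adaptor Myd88 at 0.29 (-0.01 to 0.58). A dimmer Dhx58 probe passed on the CeCl3 array alone, higher by 1.17-fold or more. The kinase Tbk1 lay at -0.19 (-0.47 to 0.08) and its target Irf3 at -0.16 (-0.38 to 0.05). In the series matrix as deposited the medians of the signalling and sensor lists were 0.20 and 0.06, where the median of all detected genes was 0.18.

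Over all genes, those with the GAAANNGAAA core in their promoter window were centred where the others were. The 292 detected genes with the core had a median log2 difference of -0.04, and the 8098 without it also had -0.04. The share below 0 was 55.8% with the core and 55.3% without.

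The differences of Ifit3 and Gbp2 kept their sign under each of 9 other ways of processing the data, at -1.60 to -1.33 for Ifit3 and -0.51 to -0.22 for Gbp2. Alternatives that change only the detection filter, or that average detected probes, repeat the reported value of a gene with 1 detected probe. For such genes, Ifit3 and Gbp2 among them, only the alternatives that change the signals themselves could move the value. Irf9 had 7 values below 0 and 2 above, between -0.10 and 0.26. Ifitm3 had 8 below and 1 above, between -0.16 and 0.04. The value above 0 came from the series matrix as deposited, where all detected genes had a median of 0.18. Ifi35 and Isg15 gave values from -1.07 to -0.56 and from -1.13 to -0.57 under the 8 alternatives that retained them.

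**Figure D5:**
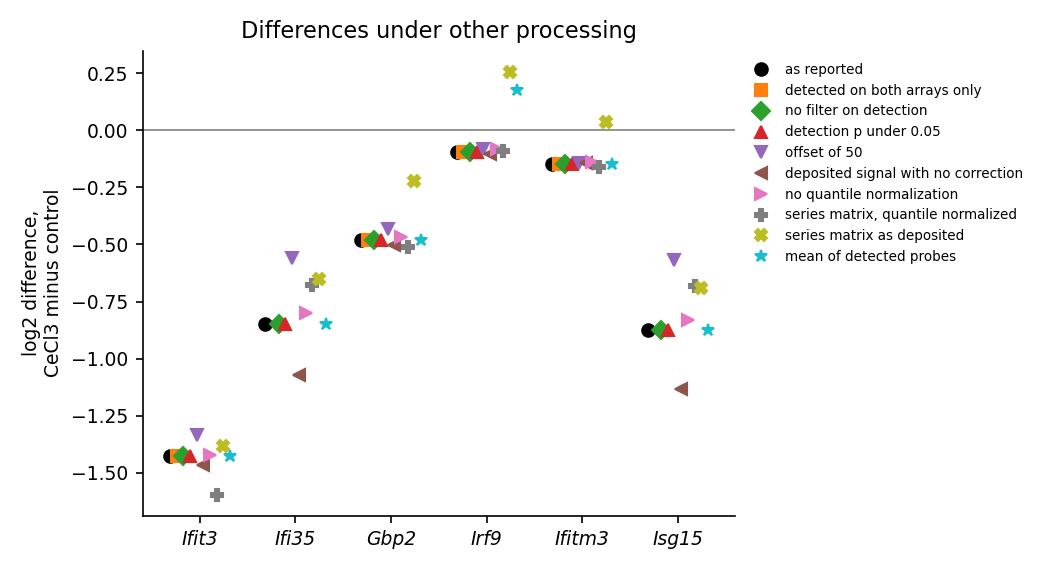
Log2 difference (CeCl3 minus control) of the 6 detected interferon-stimulated genes as reported (black circles) and under 9 other ways of processing the data (coloured symbols). Ifit3 stays between -1.60 and -1.33, while Irf9 and Ifitm3 cross 0 in the series matrix as deposited.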

How the data were processed

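For each probe the deposited table has, per the file headers, an average signal intensity, a bead standard error, a bead number and a detection p-value. Per the submitters' processing notes the software was BeadStudio, its version and settings being not given in the sources used here. That deposited intensity is background-subtracted, with 27.1% of values below 0 on each array, and its quartiles nearly match between arrays. The deposited series matrix ranks probes alike but differs in scale, with a 75th percentile ratio of 1.28 and medians of 15.9 (CeCl3) and 14.2 (control). How the authors made either table, and so its normalization, is not known.

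Signals were corrected with normexp in limma 3.58.1 (R 4.3.3), with negative controls inferred from detection p-values and an offset of 16; they were then quantile normalized and taken to log2, and the offset shrinks the differences of dim probes. Bead errors were carried to that scale and intervals are 1.96 of them. Each gene is its brightest detected probe, and fold calls use 2-fold. The procedure was tested on simulated data with known folds, set only in brighter probes detected on both arrays and with bead noise alone. That test does not cover dim probes or probes detected on 1 array alone. Names come from the platform annotation (34885 probes with 1 symbol, 18 with several, 10378 unnamed here), checked by gene number against RefSeq GRCm38.p6. Promoter windows are from RefSeq GRCm38.p6.

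The members and lists were chosen with earlier results of these data known. Named besides members were, in each pathway list, the 5 genes detected on both arrays with the largest absolute difference, those detected on 1 array alone with a bound of 1.5-fold or more, a fixed set of receptor, kinase, Stat and sensor genes, the 3 brightest detected markers of each cell type, and the 3 genes nearest Ifit3; genes said to be named after their values were seen fall outside this rule.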

Additional observations from a re-analysis of the deposited data

How the results depend on the processing

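The median log2 difference over all 6 detected members, -0.66, counts Ifi35 and Isg15, which passed detection on the control array alone and were bound to be lower. It was -0.31 over those detected on both arrays, the value in the report, -0.15 with no filter on detection, -0.48 at a detection p-value under 0.05 and -0.44 in the series matrix as deposited. The genes at least 2-fold higher, 289 as reported, numbered 46 when detected on both arrays, 70 with an offset of 50, 188 in the series matrix after quantile normalization and 674 in it as deposited. The genes at least 2-fold lower, 203 as reported, numbered 47 when detected on both arrays, 325 with no filter, 320 at the 0.05 threshold, 37 with an offset of 50 and 318 with no background correction. With no filter, more genes entered, and 36 effectors, 9 interferon gamma genes, 14 signalling genes and 15 sensor genes lay below 0. In the series matrix as deposited 6, 0, 3 and 4 did, and their medians were 0.15, 0.27, 0.20 and 0.064, where the median of all genes was 0.18. Without quantile normalization 1 interferon gamma gene lay below 0. The cause of the other shifts was not tested. Probes not detected on either array limit what can be said of Ifit1, Irf7 and Bst2. No paired analysis was possible because each group has 1 array.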
